A study of Mus musculus with 6 samples.

Results

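Matrix metalloproteinases (MMPs), their relatives of the ADAMTS and ADAMTS-like families and the tissue inhibitors of metalloproteinases (TIMPs) were examined in pancreatic islets of mice with a miR-203 transgene (TG) and of wild-type mice (WT). The members were the protein-coding genes of the authors' annotated tables whose names begin with Mmp and a digit, with Adamts, or are Timp and a digit. They numbered 47 of 47643 genes, namely 20 MMPs, 18 ADAMTS proteases, 5 ADAMTS-like genes and 4 TIMPs. The TG mice carried a transgene for miR-203 that the labels call specific to beta cells; the promoter that drives it is not given in the sources used here. All animals were labelled male, were 10 weeks old and had fasted for 12 h. There were 3 TG and 3 WT libraries, made from 3 µg of RNA each, and TG 1, TG 2, WT 1 and WT 2 came in a first pair of tables while TG 3 and WT 3 came in a second.

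MMPs are zinc-dependent enzymes that cut collagens, basement-membrane proteins and cell-surface proteins. Most are secreted as inactive precursors, whereas the membrane-type MMPs stay anchored on the cell surface. ADAMTS enzymes are secreted proteases that trim proteoglycans, procollagens and von Willebrand factor, ADAMTS-like proteins resemble them without the protease domain, and TIMPs block the active site of MMPs and of some ADAMTS enzymes. In the pancreas these genes are known mainly from fibroblast-like stellate cells, endothelial cells and macrophages.

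Total counts ran from 20176456 in WT 1 to 27482339 in TG 2. Levels are given as CPM, a gene's reads relative to the library size after TMM adjustment, and the 3 values of a genotype stand in the order of the library numbers. The second-table libraries went against their label of male, since Xist, an RNA of female cells, had 27240 counts in TG 3 and 25145 in WT 3, against at most 13 in any first-table library. Both tables hold both genotypes, the table was a term of the comparison, and the first table was also fitted alone. Because whole islets were sequenced, fewer cells of a type and less RNA per cell cannot be told apart. At the Mir203 locus, which checks the genotype label, TG libraries had 170, 164 and 150 counts and WT libraries had 39, 0 and 0, so the library labelled WT 1 carried reads there too. The mature microRNA was not measured, and leaving out WT 1, as that library is named for short, called no member.

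The beta-cell markers Ins1, Ins2, Mafa, Ucn3, Slc2a2, Pdx1, Nkx6-1 and G6pc2 were all detected, and their summed level was 30950 CPM in TG 1, 168168 CPM in TG 2 and 35264 CPM in TG 3, against 95226 to 194403 CPM in WT libraries. This sum is mostly Ins2 and Ins1, and in it TG 1 and TG 3 stood below all WT libraries while TG 2 stood among them. For Mafa, Ucn3, Slc2a2, Pdx1 and Nkx6-1, however, TG 2 was below every WT library too, and the median beta-cell marker relative to the WT mean of the same table was at -2.59 log2 units in TG 1, -0.61 in TG 2 and -1.28 in TG 3. Nkx6-1 in TG 3, at 709 CPM, was above every WT library. Summed stellate-cell and pericyte markers, of which 12 of 12 were detected, were 301, 97.6 and 307 CPM in TG libraries and 83.2, 160 and 157 CPM in WT libraries. TG 1 and TG 3 lay above every WT library in this sum, and TG 2 lay within the WT range. Sparc was the largest part of the sum in every library, at 115 CPM in TG 1 and 158 CPM in TG 3. Of the 12 markers, 10 had a fitted value above WT, but not all followed the sum. Pdgfrb in TG 1 (13.2 CPM) was below WT 2 (28.4 CPM) and WT 3 (17.0 CPM), and Acta2 was below WT 3 (1.62 CPM) in every TG library.

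The mature strand of the transgene's microRNA is shown because its seed (bases 2 to 8, in capitals) defines the matches searched for in the members' 3′ untranslated regions. It was taken from RefSeq (GRCm38.p6, chr12:112130927-112130948, plus strand).
mmu-miR-203-3p: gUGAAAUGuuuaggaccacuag
The 7-base match CATTTCA was looked for on the sense strand of 1 GENCODE M21 transcript per gene. It occurred in 6 of 47 members (12.8%) and in 5 of the 33 members tested (15.2%), against 15.4% of all 13845 tested genes with such a region. Adamts6 held 3 matches, Mmp12 held 2, and Adamts8, Adamts9, Adamts15 and Adamts18 held 1 each. Of the tested genes whose region was over 2000 and up to 4000 bases long, as it is in Adamts6 and Mmp12, 30.1% held a match. The windows of Adamts6, with the most matches, and of Mmp12 and Adamts9 are shown as DNA with the match in capitals, at chr13:104493719-104493748, chr13:104494479-104494508 and chr13:104496350-104496379 (plus), chr9:7359198-7359227 and chr9:7359904-7359933 (plus), and chr6:92773940-92773969 (minus) of GRCm38.
Adamts6 site a: gagagtcctgtCATTTCAtcgtggaaatgc
Adamts6 site b: taagagaaaaaCATTTCAatttcatgcaga
Adamts6 site c: tcccaatagacCATTTCAttaggaatttat
Mmp12 site a: gttgtgtggctCATTTCAcatcagaaagtg
Mmp12 site b: ttcagggacctCATTTCAcagccacagtag
Adamts9: atggtctcaagCATTTCAatgagggatact
Site c lies beyond the end of Adamts6 in the authors' table (104494763), since the GENCODE M21 transcript is longer. Of the 11 members with an unadjusted p under 0.05 in the comparison of genotypes, 0 held the match. A match of these letters is a description and not a binding site, and its absence from 1 transcript is no statement about the gene.

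Of the 47 members, 33 had enough counts to be tested and 28 of these had a fitted value above WT, where 48.1% of all 16072 tested genes did, and 5 below, where 51.9% did. The median log2 fold change, TG over WT, was 0.68 over the 33 members and -0.01 over all genes. No member passed edgeR's quasi-likelihood test after Benjamini-Hochberg adjustment over all genes, where 0.0% of genes did in either direction. At an unadjusted p under 0.05, 11 members were higher in TG (background 9.32% of genes) and 0 were lower (background 4.81%). In limma-voom 0 members passed after adjustment and 8 were higher (background 8.48%) and 0 lower (background 5.43%) at an unadjusted p under 0.05. DESeq2 called 5 of 31 members higher (background 4.07%), namely Mmp2, Mmp3, Mmp9, Mmp15 and Mmp24, and 0 lower (background 0.898%). With no filter on low counts, edgeR called 14 of 47 higher (background 4.37%) and 0 lower (background 1.25%), but its bias-adjusted estimate called 0. A gene that was scarce in WT entered the tests through its TG libraries, so these counts over the tested members describe them and carry no test of their own.

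In edgeR with the low-count filter, calls appeared when TG 2 was left out. That fit called 14 members higher (background 8.82%) and 0 lower (background 4.39%), whereas leaving out any of the other 5 libraries, or using the first table alone, gave 0. Relative to the WT mean of the same table, the median tested member was at 0.86 log2 units in TG 1, 0.03 in TG 2 and 0.78 in TG 3, with WT 1 at -0.17 and WT 2 at 0.15. Within each table, TG was above WT without overlap in 10 of 33 members (background 13.0%) and below it in 0 (background 13.4%). Over all 6 libraries TG was above WT without overlap in 7 (background 6.96%), namely Adamts4, Adamts5, Mmp3, Mmp15, Mmp23, Mmp24 and Timp1, and below it in 0 (background 6.42%). The labels do not state which libraries are separate animals, so each p-value reflects only the spread of these samples, which may be partly technical.

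**Figure D1:**
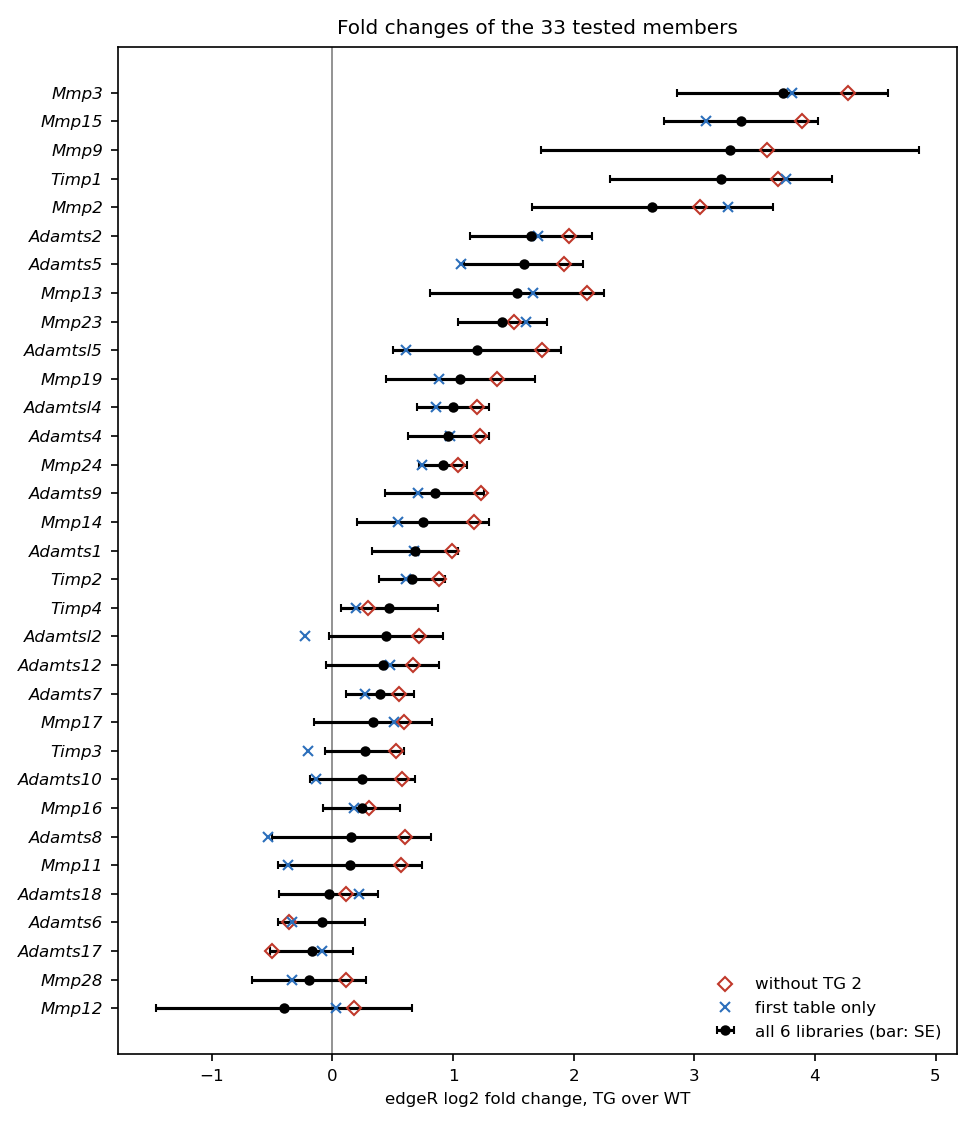
Fitted log2 fold changes (TG over WT, x axis) of the 33 tested members (rows), with SE bars for all 6 libraries and separate symbols for the fit without TG 2 and for the first table only. Mmp3 (3.73) and Mmp15 (3.39) lie at the top and Mmp12 (-0.40) at the bottom; the Mmp9 value rests on WT libraries at 0 and is no measured fold.

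Membrane-type MMPs held the pair with the smallest adjusted p among the members, Mmp15 and Mmp24. Mmp15, a membrane-anchored enzyme that can activate other MMPs (chr8:95352268-95374293, GRCm38), was at 75.3, 14.2 and 112 CPM in TG libraries and at 6.80, 3.74 and 7.18 CPM in WT libraries. All TG libraries lay above all WT libraries, and TG 2 stood nearest to them. Against the WT mean of its own table Mmp15 was 14.3-fold higher in TG 1, 2.69-fold higher in TG 2 and 15.5-fold higher in TG 3. Its log2 fold change was 3.39 (SE 0.64) with an adjusted p of 0.199 in edgeR, 0.00167 in DESeq2 and 0.000623 in edgeR without TG 2, over a range of 6.32e-52 to 0.924 across the alternatives. Without TG 1 the log2 value was 2.60. In TG 2 the stellate-cell and pericyte sum was within the WT range, whereas the duct marker sum, at 1715 CPM against 872 to 1286 CPM in WT libraries, was above it, as Mmp15 was; the part of either cell type in the Mmp15 level was not tested.

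Mmp24, a membrane-type enzyme best known from neurons (chr2:155775342-155818366), was at 27.1, 22.3 and 50.5 CPM in TG libraries and at 17.1, 12.5 and 21.1 CPM in WT libraries. Every TG library exceeded every WT library, although TG 2 exceeded WT 3 by little. The log2 fold change was 0.92 (SE 0.20), with an adjusted p of 0.199 in edgeR, 0.00551 in DESeq2 and 0.0154 in edgeR without TG 2 (range across the alternatives 0.000432 to 0.924). BC029722, which shares exon bases with Mmp24 on the opposite strand in GENCODE M21, was at 33.2, 30.4 and 31.5 CPM in TG libraries and at 37.1, 34.1 and 29.2 CPM in WT libraries; whether its reads entered the Mmp24 counts was not tested.

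Mmp14, the main surface activator of the gelatinase Mmp2, was at 25.2, 7.10 and 27.9 CPM in TG libraries and at 5.78, 16.5 and 12.3 CPM in WT libraries. TG 1 and TG 3 were above every WT library, but TG 2 lay below WT 2 and WT 3. Its log2 fold change of 0.75 (SE 0.54) had an edgeR adjusted p of 0.567. Mmp16 overlapped between genotypes, at 1.43, 1.27 and 1.70 CPM in TG libraries and 0.918, 1.45 and 1.31 CPM in WT libraries. The lipid-anchored Mmp17, and Mmp25, which is known from neutrophils, were below 1.4 CPM in every library. Mmp25 had 33 counts in TG 3 and between 1 and 6 in the other libraries, and it was too scarce to be tested.

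**Figure D2:**
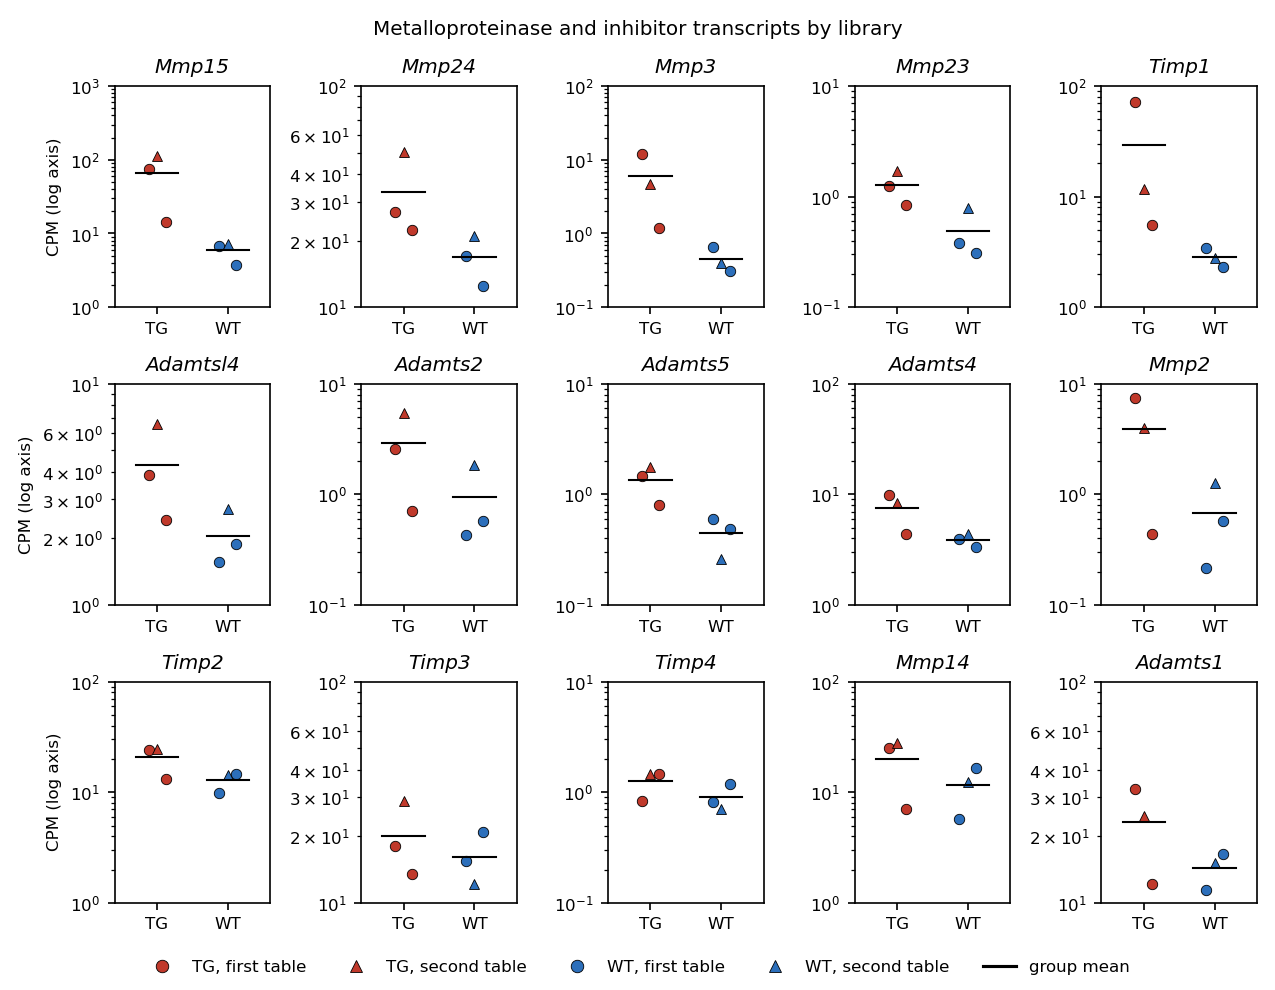
CPM on a log axis for 15 members, with TG left of WT in each panel; circles are first-table and triangles second-table libraries, and horizontal lines are group means. Mmp15 reaches 75.3 and 112 CPM in TG 1 and TG 3, and TG 2 (14.2 CPM) stands nearest to the WT libraries.

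The gelatinases, which degrade denatured collagen and basement-membrane collagen, were scarce in WT. Mmp2 (chr8:92827328-92853417) was at 7.44, 0.437 and 3.94 CPM in TG libraries and at 0.216, 0.572 and 1.27 CPM in WT libraries. TG 2 lay inside the WT range while the other TG libraries lay above it. The fitted log2 fold change was 2.65 (SE 1.0), with an edgeR adjusted p of 0.310, and without TG 1 it was 0.94. Mmp9 had 103, 5 and 14 counts in TG libraries and 0, 0 and 10 counts in WT libraries, so the difference rested mainly on TG 1, and no fold is given because WT 1 and WT 2 were at 0. Of 8 neutrophil markers, cells known for Mmp9, the summed level was 0.125 to 5.40 CPM in TG and 1.01 to 2.27 CPM in WT, and Retnlg was at 0 in every library.

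Among the other secreted or shed MMPs, Mmp23, which is cut free from the membrane during its own maturation (chr4:155650655-155653384), was at 1.25, 0.834 and 1.70 CPM in TG libraries and at 0.378, 0.308 and 0.788 CPM in WT libraries. All TG libraries were above all WT libraries, with TG 2 close to WT 3, and the log2 fold change was 1.41 (SE 0.37, edgeR adjusted p = 0.227). Mmp23 was the 1 member of the 11 with an unadjusted p under 0.05 that no alternative called. Mmp11, known from stromal cells around tumours, was at 0.939, 0.318 and 2.16 CPM in TG libraries and 0.432, 1.19 and 1.05 CPM in WT libraries, with overlapping groups. Mmp19 ranged from 0.357 to 1.45 CPM in TG and from 0.108 to 0.572 CPM in WT. Mmp28 ranged from 0.318 to 0.913 CPM in TG and from 0.486 to 0.924 CPM in WT, and Mmp21 had 1 to 9 counts per library.

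Of the Mmp genes, 7 members lie within 427 kb of chromosome 9 (7272514 to 7699585), in the order Mmp13, Mmp12, Mmp3, Mmp10, Mmp8, Mmp27 and Mmp7, and 6 of the 7 had their highest level in TG 1. Mmp3, a stromelysin that cuts proteoglycans and activates other MMPs (chr9:7445822-7455972), was at 12.1, 1.19 and 4.73 CPM in TG libraries and at 0.648, 0.308 and 0.394 CPM in WT libraries. Every TG library was above every WT library, by 25.3-fold in TG 1, 2.49-fold in TG 2 and 12.0-fold in TG 3 over the WT mean of its table. Its log2 fold change of 3.73 (SE 0.87) had the largest value of the tested members, with an adjusted p of 0.203 in edgeR, 0.000241 in DESeq2 and 0.00195 in edgeR without TG 2 (range across the alternatives 5.83e-18 to 0.924). Without TG 1 the Mmp3 log2 fold change was 2.33.

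Mmp13 and Mmp12 did not share this order of libraries. Mmp13, the main rodent collagenase, was at 10.1, 1.27 and 0.872 CPM in TG libraries and at 1.78, 1.8 and 0.394 CPM in WT libraries, so TG 1 alone was above every WT library, and the log2 fold change of 1.53 (SE 0.72) was 0.11 without TG 1. Mmp12, the macrophage elastase, was at 16.7, 1.67 and 0.540 CPM in TG libraries and at 1.46, 16.5 and 1.71 CPM in WT libraries. One library of each genotype was thus high in Mmp12. Summed macrophage markers, of which 10 of 10 were detected, were 200, 112 and 208 CPM in TG libraries and 84.8, 196 and 89.3 CPM in WT libraries; they were high in TG 1, WT 2 and TG 3. In TG 3, where Mmp12 was lowest, the sum was mostly C1qa at 148 CPM, while Adgre1 (1.62 CPM) and Cd68 (9.84 CPM) were below every WT library. In TG 1, where Mmp12 was highest, C1qa was likewise the largest part at 113 CPM. Cd68 in TG 1 (10.0 CPM) was also below every WT library, while Adgre1 (3.72 CPM) lay within the WT range. The part of macrophages in the Mmp12 levels was not tested.

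Mmp10, another stromelysin, had 16, 0 and 12 counts in TG libraries and 0, 1 and 1 counts in WT libraries. The matrilysin Mmp7 had 35, 8 and 0 counts in TG libraries and 2 in each WT library. The collagenase Mmp8 had 9 counts in TG 1 and at most 1 in any other library, and Mmp27 had 0 in all TG libraries and 1 or 2 in the WT libraries. A count of 0 allows up to 3 counts, or 0.104 to 0.125 CPM in TG libraries and 0.131 to 0.162 CPM in WT libraries, and no fold is given for these genes.

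The promoters of 5 of these 7 neighbours, and of no other member in the RefSeq table, held the letters TGANTCA, the site of the AP-1 transcription factor (Fos and Jun proteins). The search covered 250 bases before to 50 after each annotated start, on both strands (the motif reads the same on either), in 36 promoters of 33 members, of which 13.9% held it, against 7.81% of all 32851 promoters. They are shown 5′ to 3′ on the plus strand, motif in capitals, because these genes are neighbours and the motif lies 35 to 63 bases upstream of 1 annotated start of each. Mmp12 and Mmp7 have another annotated start whose window held 0 matches, and the Mmp12 start used here lies inside the gene as the authors' table gives it, which begins at 7344381 (GRCm38.p6, chr9:7272468-7272497 for Mmp13, chr9:7347319-7347348 for Mmp12, chr9:7445765-7445794 for Mmp3, chr9:7502268-7502297 for Mmp10 and chr9:7692016-7692045 for Mmp7).
Mmp13: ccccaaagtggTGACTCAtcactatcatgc
Mmp12: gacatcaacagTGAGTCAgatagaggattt
Mmp3: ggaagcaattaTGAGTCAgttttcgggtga
Mmp10: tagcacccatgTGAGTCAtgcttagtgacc
Mmp7: aagtgtgcaaaTGAGTCAcctatttccaca
Occupancy of these sites was not measured.

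**Figure D3:**
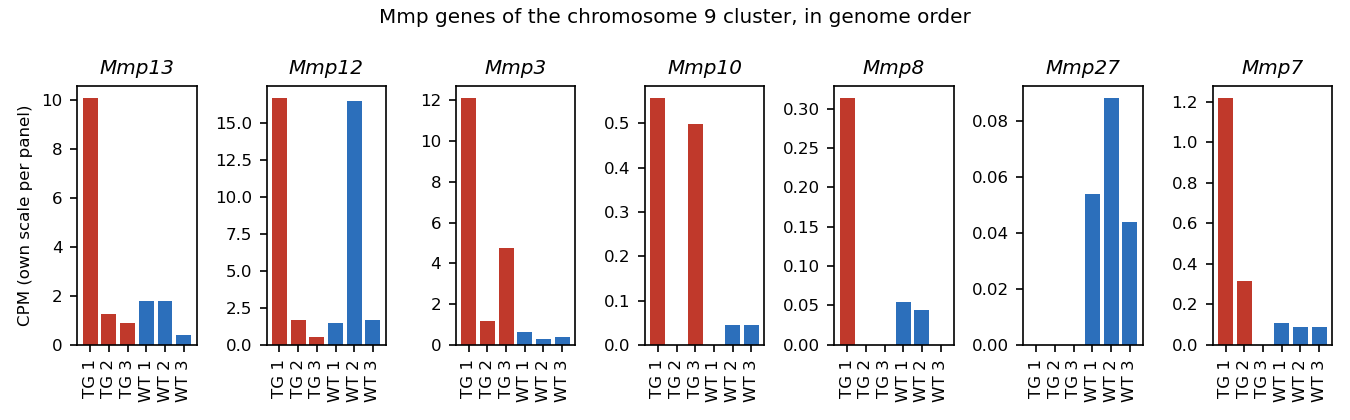
CPM per library (bars from 0, own scale per panel) for the 7 Mmp genes of the chromosome 9 cluster in genome order, TG libraries left of WT libraries. TG 1 is highest for all but Mmp27, and Mmp12 is as high in WT 2 (16.5 CPM) as in TG 1 (16.7 CPM).

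Of the ADAMTS proteases that cut the large proteoglycans aggrecan and versican, Adamts4 and Adamts5 separated the genotypes and the others did not. Adamts4 (chr1:171250421-171260637) was at 9.91, 4.41 and 8.34 CPM in TG libraries and at 3.94, 3.34 and 4.38 CPM in WT libraries. The groups did not overlap, but TG 2 exceeded WT 3 only slightly. Its log2 fold change was 0.96 (SE 0.34, edgeR adjusted p = 0.285). Adamts5 was at 1.46, 0.794 and 1.78 CPM in TG libraries and at 0.594, 0.484 and 0.263 CPM in WT libraries, without overlap, with a log2 fold change of 1.59 (SE 0.49, edgeR adjusted p = 0.250).

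Adamts1 and Adamts9 were more abundant and overlapped between genotypes. Adamts1, an inhibitor of vessel growth as well as a protease, was at 32.7, 12.2 and 24.6 CPM in TG libraries and at 11.4, 16.6 and 15.1 CPM in WT libraries. Adamts9 was at 14.8, 4.80 and 9.26 CPM in TG libraries and at 5.78, 6.25 and 4.20 CPM in WT libraries. In both genes TG 1 and TG 3 were above every WT library and TG 2 was not, and both were called without TG 2. Adamts8 and Adamts15 stayed below 0.84 CPM and Adamts20 had at most 3 counts in a library.

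Adamts2, which trims the ends of fibrillar procollagens (chr11:50602084-50807573), was at 2.57, 0.714 and 5.44 CPM in TG libraries and at 0.432, 0.572 and 1.84 CPM in WT libraries. Each TG library exceeded the WT libraries of its table, while TG 2 was below WT 3. Its log2 fold change was 1.65 (SE 0.50, edgeR adjusted p = 0.248), and 1.05 without TG 1. The other procollagen proteinases were scarce, with Adamts14 at 16, 4 and 18 counts in TG libraries and 2, 0 and 5 in WT libraries, and Adamts3 at 1 to 5 counts throughout.

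The remaining ADAMTS proteases showed no common direction. Adamts6, which held the 3 seed matches, was at 4.14, 8.65 and 7.02 CPM in TG libraries and at 9.72, 6.47 and 5.25 CPM in WT libraries. The groups overlapped, and the log2 fold change was -0.09 (SE 0.36). Adamts7, which cuts the cartilage protein COMP, was at 4.28, 3.02 and 4.03 CPM in TG libraries and at 3.45, 2.60 and 2.58 CPM in WT libraries; Tbc1d2b, which shares exon bases with it on the opposite strand, had a log2 fold change of 0.54. Adamts10, a protease tied to fibrillin microfibrils, was at 2.36, 1.19 and 5.15 CPM in TG libraries and at 1.35, 2.55 and 2.63 CPM in WT libraries, and only TG 3 stood above WT. Adamts17 was at 1.11, 2.18 and 2.74 CPM in TG libraries and at 2.0, 1.5 and 3.46 CPM in WT libraries. Adamts18 was at 4.21, 2.34 and 2.91 CPM in TG libraries and at 1.73, 3.87 and 4.20 CPM in WT libraries. For these 5 genes the log2 fold changes ran from -0.17 (Adamts17) to 0.39 (Adamts7), each with an edgeR adjusted p of 0.559 or higher. Adamts12 stayed below 0.84 CPM, Adamts13, the protease of von Willebrand factor, had 1 to 9 counts, and Adamts16 had at most 2.

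ADAMTS-like genes, which encode matrix proteins that lack the protease domain and some of which bind fibrillin, were also uneven. Adamtsl4 was at 3.86, 2.42 and 6.56 CPM in TG libraries and at 1.57, 1.89 and 2.71 CPM in WT libraries, above the WT of its table each time, with a log2 fold change of 1.0 (SE 0.30, edgeR adjusted p = 0.245). Adamtsl5 was at 2.26, 0.516 and 4.44 CPM in TG libraries and at 0.486, 1.32 and 0.876 CPM in WT libraries, with TG 2 below WT 2. Adamtsl2 stood apart in TG 3 alone, at 1.81, 1.63 and 8.18 CPM in TG libraries and 2.54, 1.5 and 2.5 CPM in WT libraries. Adamtsl1 had 44, 4 and 18 counts in TG libraries and 3, 0 and 8 in WT libraries, and Adamtsl3 had at most 11.

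Among the TIMPs, only Timp1 had TG libraries all above WT libraries. Timp1, the inducible inhibitor (chrX:20870166-20874735, inside the Syn1 gene), was at 71.2, 5.56 and 11.8 CPM in TG libraries and at 3.40, 2.29 and 2.76 CPM in WT libraries. The TG libraries did not overlap WT but spread widely, from 1.95-fold above the WT mean of the table in TG 2 to 25.0-fold in TG 1. Its log2 fold change was 3.22 (SE 0.92) with an adjusted p of 0.238 in edgeR, 0.0560 in DESeq2 and 0.00720 in edgeR without TG 2, over a range of 4.56e-32 to 0.924 across the alternatives. Without TG 1 the fold change on the log2 scale was 1.47.

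Timp2, which also takes part in activating Mmp2 at the cell surface, was at 24.2, 13.1 and 24.6 CPM in TG libraries and at 9.88, 14.5 and 14.4 CPM in WT libraries. TG 2 lay within the WT range, and the log2 fold change was 0.66 (SE 0.27, edgeR adjusted p = 0.345). Timp3, the inhibitor bound to the matrix, was at 18.0, 13.5 and 28.8 CPM in TG libraries and at 15.5, 20.9 and 12.2 CPM in WT libraries, with a log2 fold change of 0.27 (SE 0.33, edgeR adjusted p = 0.751). Timp4 was at 0.835, 1.47 and 1.45 CPM in TG libraries and at 0.810, 1.19 and 0.700 CPM in WT libraries. Timp3 and Timp4 overlapped WT, and each shares exon bases with a synapsin gene on the opposite strand, Syn3 at up to 2.20 CPM for Timp3 and Syn2 at 36.4 to 58.3 CPM for Timp4, which leaves the low Timp4 level uncertain.

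Per kilobase of gene length, the order of the members differed between genotypes. In TG the highest were Timp1 at 33.2 ± 40.8, Mmp15 at 15.4 ± 11.3, Mmp24 at 7.10 ± 3.22 and Timp2 at 5.29 ± 1.68 CPM per kilobase. In WT they were Mmp24 at 3.60 ± 0.920, Timp2 at 3.32 ± 0.682, Timp1 at 3.17 ± 0.629 and Adamts1 at 2.71 ± 0.501 CPM per kilobase (SD, n = 3), and these 4 lie within 1 SD of their neighbours in the order. Mmp15 was at 1.36 ± 0.434 CPM per kilobase in WT and ranked 8 among the 47 members there, against 2 in TG. The summed CPM of all members was 390, 132 and 373 in TG libraries and 113, 147 and 133 in WT libraries.

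**Figure D4:**
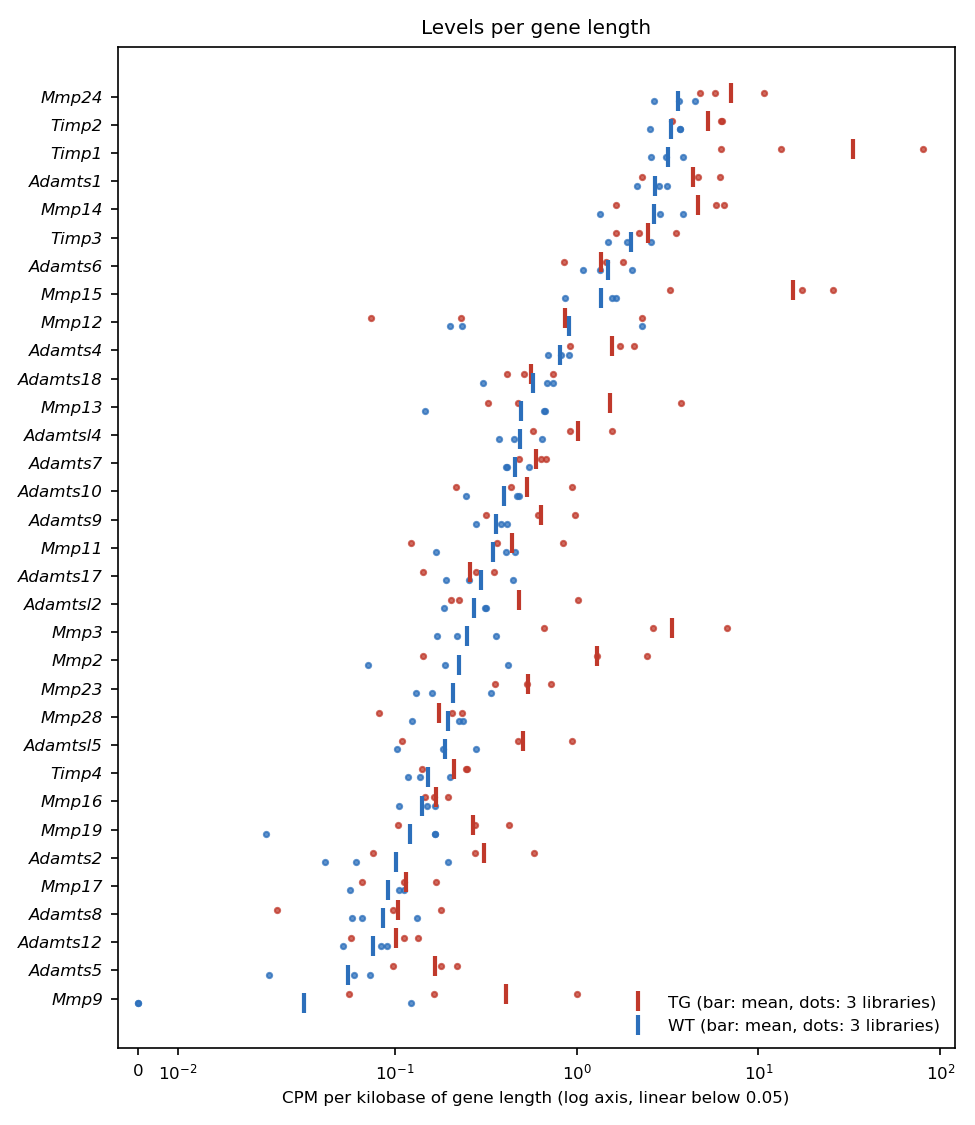
CPM per kilobase of gene length (log axis, linear below 0.05) of the 33 tested members, ordered by their WT mean, with dots for libraries and bars for genotype means, TG above WT in each row. Timp1 and Mmp15 have the highest TG means (33.2 and 15.4) and Mmp24 the highest WT mean (3.60).

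Genes that activate, restrain or are cut by these enzymes were listed from textbook roles, 33 regulators and 23 substrates. Of 29 regulators tested, 0 passed edgeR after adjustment, and 8 had an unadjusted p under 0.05, 6 of them higher in TG (background 9.32%) and 2 lower (background 4.81%). Tfpi2, an inhibitor of serine proteases and MMPs, was at 24.1 ± 11.5 CPM in TG libraries against 4.76 ± 2.58 CPM in WT libraries, and Cd44, a hyaluronan receptor that docks MMPs, was at 294 ± 117 CPM in TG libraries against 82.5 ± 51.2 CPM in WT libraries (SD, n = 3 each). The plasminogen activator Plat, the surface protease St14 and the transcription factor Ets1 were also among the 6, with log2 fold changes between 0.78 (St14) and 1.39 (Plat). Adam9, a membrane protease, was lower at 60.8 ± 16.1 CPM in TG libraries against 95.5 ± 6.20 CPM in WT libraries, and Spock1, a matrix proteoglycan, was lower at 21.8 ± 5.40 CPM in TG libraries against 31.1 ± 2.84 CPM in WT libraries. The share that was lower is near the background. DESeq2 called 2, Tfpi2 and Ets1, after adjustment (background 4.07%).

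All 19 substrates tested had fitted values above WT (background 48.1%), and 5 of them were higher at an unadjusted p under 0.05 (background 9.32%), with 0 passing edgeR after adjustment and 4 of them (Dcn, Eln, Postn and Vwf) passing DESeq2 (background 4.07%). These 5 were Col1a1, the main fibrillar collagen chain, Dcn (decorin), Eln (elastin), Postn (periostin) and Vwf (von Willebrand factor, the substrate of Adamts13). Postn was at 11.1, 3.33 and 6.19 CPM in TG libraries and at 1.57, 1.98 and 1.93 CPM in WT libraries, without overlap. Col1a1 was at 30.6, 0.913 and 35.3 CPM in TG libraries and at 0.270, 1.1 and 14.2 CPM in WT libraries, with TG 2 near the first-table WT level. Col1a1 and Dcn are also in the stellate-cell and pericyte list, and Vwf is in the endothelial list. The stellate-cell and pericyte list had a median gene, relative to the WT mean of the same table, at 1.77 log2 units in TG 1, -0.19 in TG 2 and 1.11 in TG 3. TG 2 was likewise the lowest TG library for the median member and for Mmp2, Mmp14, Adamts1 and Adamts9. Among the tested members, TG 2 was not the lowest TG library on this ratio for Adamts6, Adamts17, Adamts18, Mmp9 and Timp4. For the median gene of some other lists TG 2 was the lowest too, at -0.16 log2 units for regulators, -0.25 for substrates, -0.11 for endothelial and 0.21 for duct markers. Other lists differed. TG 1 was lowest for beta-cell (-2.59, TG 2 -0.61) and acinar markers (-0.44, TG 2 -0.04). TG 3 was lowest for alpha-cell (-0.09, TG 2 0.11) and Schwann-cell markers (0.25, TG 2 0.41). Macrophage markers were at -0.24 in both TG 1 and TG 2. Nor was TG 2 lowest for neutrophil, lymphoid or mesothelial markers, of which few were tested. The part of any of these cells in the members' levels was not tested. Duct markers were also higher, with sums of 1715 to 2280 CPM in TG libraries against 872 to 1286 CPM in WT libraries.

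**Figure D5:**
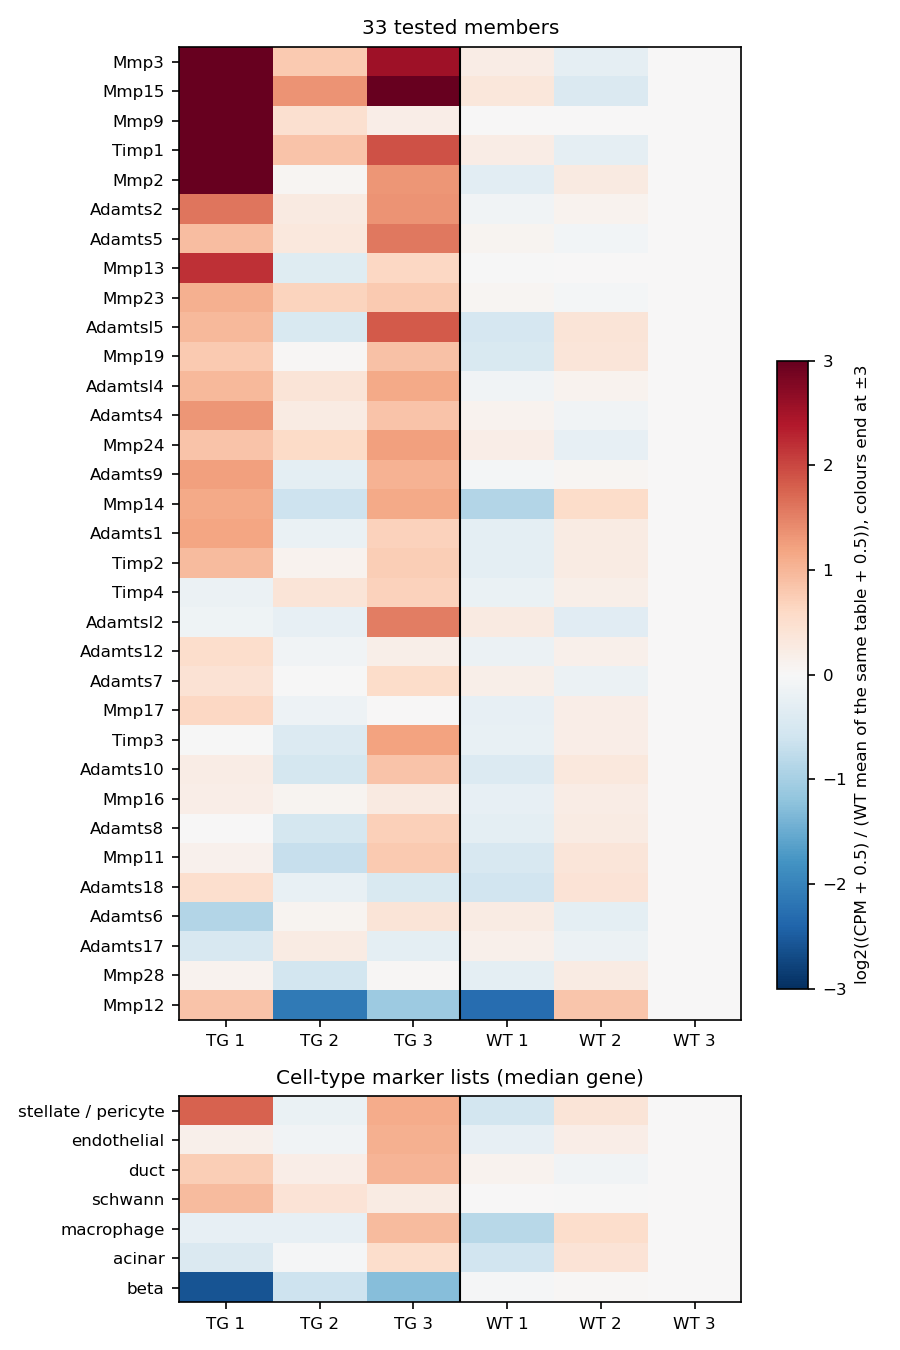
Log2 ratio of each library to the WT mean of its own table, after adding 0.5 CPM, for the 33 tested members (upper panel) and the median gene of 7 cell-type marker lists (lower panel); columns are libraries, TG left of WT, and WT 3 is 0 by construction. TG 1 and TG 3 are high for most members (medians 0.86 and 0.78) and TG 2 is near 0 (median 0.03). TG 2 is also the lowest TG library in the stellate-cell and pericyte, endothelial and duct lists. It is not the lowest in the Schwann-cell, acinar and beta-cell lists, and in the macrophage list TG 1 and TG 2 are alike (-0.24 each).

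An interaction term in edgeR, which asks whether the first and second table gave different TG effects, called 0 members and 0 genes after adjustment, with 366 of 16072 genes at an unadjusted p under 0.05. In the first table alone, 6 members were higher at an unadjusted p under 0.05 (background 4.22%), namely Mmp2, Mmp3, Mmp15, Mmp23, Mmp24 and Timp1, and 0 were lower (background 1.12%). Mmp15 had a log2 fold change of 3.09 there, Mmp3 3.81, Timp1 3.76 and Mmp24 0.74. The second table, with 1 library of each genotype, gave log2 ratios of TG 3 over WT 3 of 3.96 for Mmp15, 3.59 for Mmp3, 2.10 for Timp1 and 1.26 for Mmp24. These 4 genes were higher in TG in either table. That follows from their lack of overlap over all 6 libraries and adds no separate evidence.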

How the data were processed

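Islet RNA was sequenced from NEBNext Ultra libraries, per the labels' protocols. The submitters' processing notes list CASAVA 1.8, HISAT2 and the build GRCm38 (mm10). For the read counter, strand setting and annotation release, nothing is given in the sources used here. Reads of overlapping or antisense genes therefore cannot be told apart, which touches the 12 members that share exon bases with another gene in GENCODE M21. The authors deposited raw, unnormalized counts per gene (47643 genes a table). The deposited FPKM values were scaled by the authors separately in each table, per the file headers and the values, and were used only for gene names, positions and lengths and for 1 check of overlap.

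The tables were merged by gene identifier. R 4.3.3 with edgeR 4.0.16 gave the main test, a quasi-likelihood F-test with terms for table and genotype after filterByExpr and TMM, over 16072 genes with a Benjamini-Hochberg threshold of 0.05. The SE is the absolute log2 fold change over the square root of F. DESeq2 1.42.0, limma-voom (limma 3.58.1), other size factors, filters and terms, the first table alone and each library left out were the alternatives. The fits were tested on simulated counts with the same fixed spread for every gene, no difference between tables, and changes in abundant genes only. That test does not show how the fits perform at the spread of these libraries. No 2 libraries matched within sampling noise (lowest chi-square per degree of freedom 31.6, over 13065 genes). Depth of 20176456 to 27482339 counts limits only the scarce members; floors cover counting error only. Values in every library were given for all TIMPs, members with a mean of at least 1 CPM and members with an unadjusted p under 0.05. Results for some genes outside the members are not reported here. The members and lists were chosen with earlier results of these data known.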

Additional observations from a re-analysis of the deposited data

Results flagged for a closer look

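Mmp7 and Adamts16 had TG above WT in the first table and TG 3 nominally below WT 3 in the second. The difference between tables was not tested, and the second-table values lie within the 3 counts that a count of 0 allows, so no opposite direction is shown. Mmp7 had 35 and 8 counts in TG 1 and TG 2 and 2 each in WT 1 and WT 2, but the level of TG 3 minus that of WT 3 was -0.0876 CPM (0 against 2 counts). Adamts16 had 1 and 2 counts in TG 1 and TG 2 and 0 in WT 1 and WT 2, and TG 3 minus WT 3 was -0.0438 CPM (0 against 1 count).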

How the results depend on the processing

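The main fit called no member, so an alternative could only add calls. Of the 33 tested members, 22 kept their direction in each of the 14 alternatives that tested them. In DESeq2, 752 genes, 5 members and 6 regulators or substrates were called, and edgeR on unfiltered genes called 1672, 14 and 21, whereas the bias-adjusted estimate on those genes called 0 of each. Leaving out 1 library at a time gave 0 to 2188 genes, 0 to 14 members and 0 to 23 regulators or substrates, and each count above 0 came from leaving out TG 2. The causes were not tested, except that leaving out TG 2 removes the TG library nearest to WT. In the first table alone 7 log2 fold changes had the opposite sign, namely -0.14 for Adamts10, 0.22 for Adamts18, -0.53 for Adamts8, -0.22 for Adamtsl2, -0.37 for Mmp11, 0.027 for Mmp12 and -0.21 for Timp3. With 1 library left out, signs changed within -0.14 to 0.66 for Adamts10, -0.50 to 0.036 for Adamts17, -0.38 to 0.25 for Adamts18, -0.36 to 0.23 for Adamts6, -0.54 to 0.80 for Adamts8, -0.23 to 0.87 for Adamtsl2, -0.37 to 0.79 for Mmp11, -2.15 to 0.83 for Mmp12, -0.17 to 0.60 for Mmp17, -0.55 to 0.14 for Mmp28 and -0.21 to 0.53 for Timp3. Where only 1 library of a genotype was left in a table, it was assumed to vary like the rest, and leaving out TG 3 or WT 3 removes the second table from the genotype difference. No paired analysis was possible because the labels give TG and WT libraries no shared replicate numbers.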
